A study of Mus musculus with 4 samples.

Results

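The genes described here are 40 genes of mitosis, among them those of the kinetochore, the spindle checkpoint, the mitotic kinesins and condensin, out of 36161 gene names on the array. They were chosen by name, with earlier results of these data known. Every non-control probe that carries such a name was read on all arrays. Whole liver RNA was compared between microsomic mice (M), which were of low weight at birth for their sex, and control mice (C) of normal weight. The 4 groups, with 1 array each, are the females (MF) and males (MM) of the microsomic mice and the females (CF) and males (CM) of the controls. All are C57BL/6J at embryonic day 20 in the sample labels, whereas the study's methods give newborn C57BL/6 N mice, and no transgene or treatment is given for any group. The controls were littermates of the microsomic mice, and the number of animals behind each RNA sample is not stated. The question was whether genes that serve cell division differ in the liver between small and normal littermates of a single genotype.

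The products of these genes act when a cell divides. Cyclins and mitotic kinases drive the cell into mitosis, condensin and topoisomerase compact and untangle the chromosomes, and kinetochores hold each chromosome to the microtubules of the spindle. The spindle checkpoint holds back anaphase until all kinetochores are attached, after which separase cuts the rings that join sister chromatids and the kinesins of the midzone build the site of cleavage. Their transcripts accumulate in dividing cells, and the perinatal liver holds dividing hepatocytes beside blood cell precursors, for which it is a site of formation.

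The levels below are log2 intensities relative to the 75th percentile of the array, so that 0 is the level of that percentile. Differences are M minus C on the log2 scale, and 1.5-fold, the threshold used for counting, is 0.585. The share of spots well above background was 63.7% (MF) and 65.3% (MM), against 57.7% (CF) and 56.1% (CM). Unscaled signal at the 75th percentile was 893 (MF) and 925 (MM), against 676 (CF) and 628 (CM). Both M arrays were thus brighter than both C arrays, and array brightness cannot be separated from group. A group was measured once, and a pair of arrays therefore gives neither an error nor a p-value. The only error that could be measured is that between repeated spots of a probe. For probes with at least 5 spots well above background, the difference taken from a single spot had an SD of 0.36 in MF vs CF (295 probes) and of 0.41 in MM vs CM (288 probes), and it was off by more than 1.5-fold in 7.61% and 12.1% of spots. All arrays lie on the same slide, with M and C in separate columns of it, so that position on the slide and group cannot be told apart. In whole liver fewer dividing cells and less RNA per dividing cell cannot be told apart.

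The 40 genes have 52 probes at 61 spots, and 39 of the genes have a probe free of outlier flags. The gene left out is *Smc2*, a core ATPase of condensin, whose only probe is flagged on CF and read 2.41 on MF and 2.52 on MM, against 2.80 on CF and 2.92 on CM. Each gene was taken by its brightest probe, and 38 of the 39 were well above background on all 4 arrays. The other gene is *Cenpf*, which was not well above background on CM. No probe of these genes was saturated. All but *Bub1* were read from 1 spot per probe. Over the whole array, MF held 916 spots with a non-uniformity flag, against 130 on MM, 182 on CF and 136 on CM.

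Between the females, 13 of 39 genes were lower and 4 were higher past 1.5-fold in MF than in CF, where 21.0% of all 25536 compared genes were lower and 19.9% higher. The other 22 genes lay within 1.5-fold. In any amount, 29 of the 39 genes were lower in MF, against 52.2% of all genes. Their median difference was -0.35, beside -0.11 over all genes well above background on both arrays, and it turned to 0.05 with the deposited values without scaling, where the median of all genes was 0.29. Relative to the median of all genes it was -0.24, with values between -0.36 and -0.16 under the 12 settings tried. Median centring and the deposited values shift all genes alike, so they could not change this relative value. Nor could the filter for both arrays well above background, which these medians already use. The genes lower in MF were the kinesins *Kif2c*, *Kifc1*, *Kif23* and *Kif4*, the kinetochore genes *Ndc80* and *Cenpe*, the checkpoint genes *Mad2l1*, *Ttk* and *Bub3*, separase (*Espl1*), the condensin genes *Smc4* and *Ncaph*, and *Nusap1*. Those higher were *Ncapd2*, *Bub1b*, *Tpx2* and *Cdca8*.

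Between the males, in MM vs CM, 6 of 39 genes were lower and 4 were higher past 1.5-fold, where 23.1% and 17.7% of all 26313 compared genes were, and 29 lay within 1.5-fold. In any amount, 20 of the 39 were lower in MM, against 47.7% of all genes. Both shares of the mitosis genes, 15.4% and 10.3%, are below those of all genes. The lower genes were *Espl1*, *Top2a*, *Cenpe*, *Nek2*, *Kif23* and *Kif4*, and the higher ones *Ncapg*, *Aurkb*, *Prc1* and *Spc25*. The median difference over the 38 genes well above background on both arrays was -0.07, the same as that of all genes (-0.07), and it was above 0 after centring on the median (0.16), with the deposited values (0.49) and with the trend over the array removed. Centring on the median moved all differences in MM vs CM up by 0.24, which left none of the 6 genes past 1.5-fold. Whether the female and the male differences themselves differ was not tested, since each rests on 1 array per group.

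**Figure D1:**
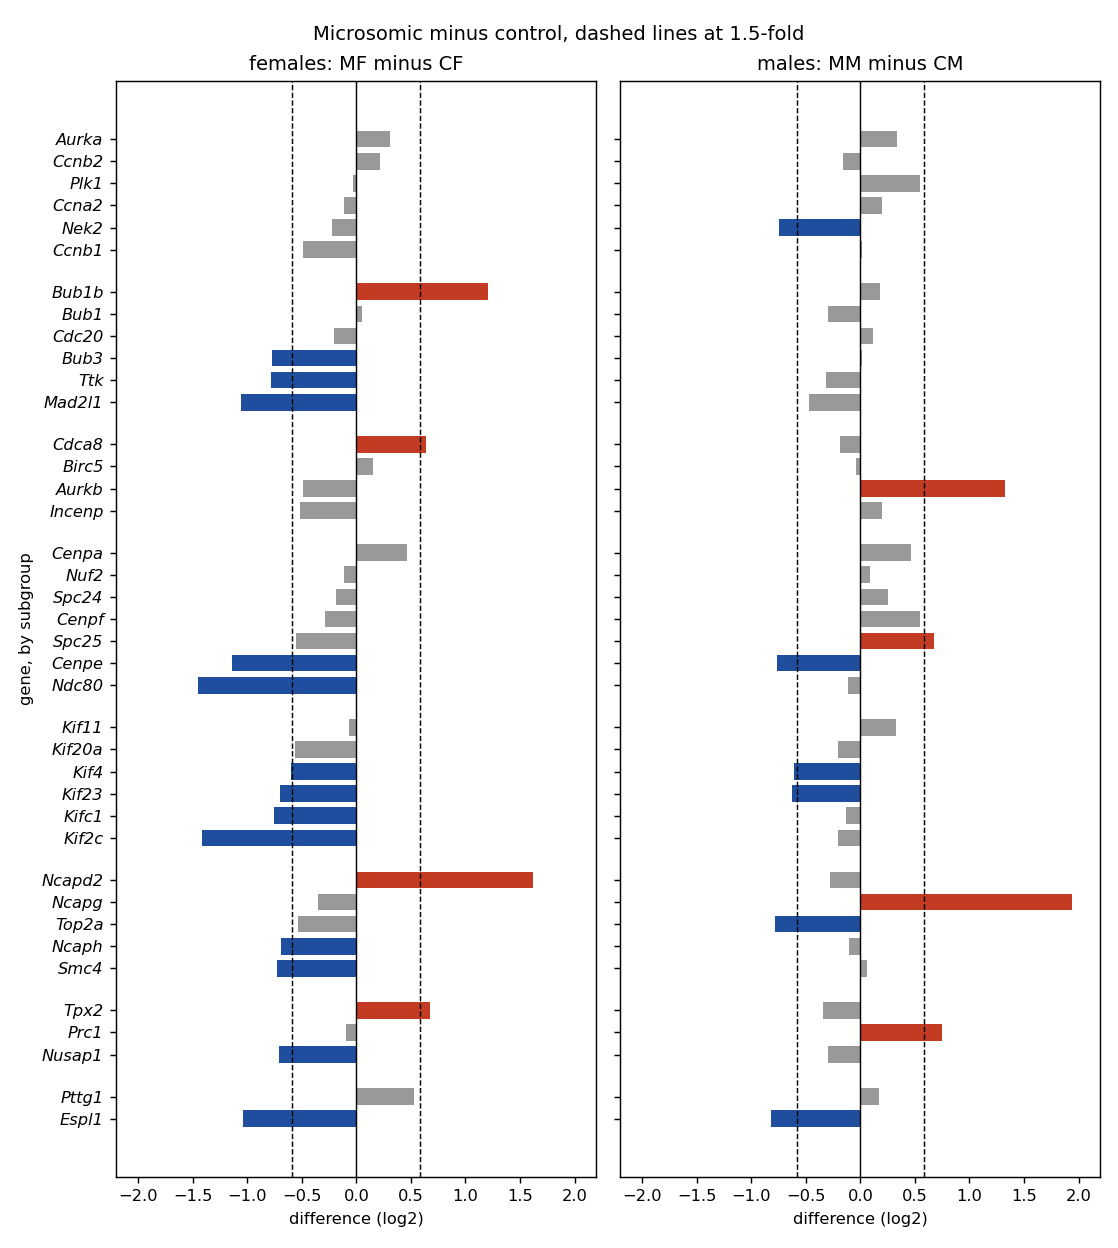
Difference between microsomic and control arrays (log2, horizontal axis) of the 39 genes, ordered by subgroup, for females (left) and males (right), with 1 array per group and so no error bars. Bars past the dashed 1.5-fold lines are coloured, blue for lower (13 genes in females, 6 in males) and red for higher (4 in each).

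The genes lower past 1.5-fold in both sexes numbered 4 of 39 (10.3%), beside 3.8% of all 23966 genes compared in both. None was higher in both (0 of 39, 3.18% of all genes), and none passed 1.5-fold in opposite directions (0 of 39, 9.85% of all genes, of which 4.04% were lower in MF and higher in MM and 5.81% the reverse). The MF and CF arrays are separate from MM and CM, so the differences in females and in males rest on different RNA, but they share the slide. *Cenpe* (probe A_51_P164014, chromosome 3, 134936387 to 134936446 on mm9), the kinesin that carries chromosomes along microtubules at the kinetochore, read 2.19 on MF and 2.35 on MM, against 3.33 on CF and 3.12 on CM. Its level was lower on both M arrays than on both C arrays, 2.21-fold in females and 1.70-fold in males. *Espl1* (probe A_52_P658437, chromosome 15, 102153644 to 102153882 on mm9), separase, the protease that releases sister chromatids, read -0.07 on MF and -0.02 on MM, against 0.97 on CF and 0.80 on CM. Again the M arrays lay together below the C arrays, 2.05-fold in females and 1.77-fold in males. *Kif4* (probe A_51_P254805, chromosome X, 97922085 to 97922145 on mm9), a kinesin bound to chromosome arms, read 0.54 on MF and 0.76 on MM, against 1.14 on CF and 1.36 on CM, which is 1.52-fold lower in each sex and just past the threshold. *Kif23* (probe A_51_P324287, chromosome 9, 61767492 to 61767732 on mm9), the motor subunit of centralspindlin at the midzone, read 0.28 on MF and 0.94 on MM, against 0.98 on CF and 1.56 on CM. Here MM and CF were level, and the difference between the sexes (0.58 between CM and CF) was nearly as large as that between M and C (1.62-fold and 1.54-fold). None of the 4 genes stayed past 1.5-fold in both sexes after centring on the median, with the deposited values, or at a threshold of 2-fold. After normexp correction with quantile normalization *Kif4* alone did, with male differences of -0.16 for *Cenpe* and -0.49 for *Espl1* and a female difference of -0.22 for *Kif23*. With the trend over the array removed *Cenpe* and *Espl1* did, and with quantile normalization all but *Kif4*.

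The limma model over all 4 arrays tests a difference common to both sexes. With Benjamini-Hochberg adjustment over 19298 genes it called 0 of 38 mitosis genes (0.0% of all genes), and 0 of the 38 had an unadjusted p under 0.05, beside 4.41% of all genes. The mitosis genes with the lowest adjusted p from limma, 0.995, were led by *Cenpe* (mean difference -0.95, SE 0.42) and *Espl1* (-0.93, SE 0.41). The 2 sexes serve as replicates in this fit, which leaves 1 residual degree of freedom.

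Genes of mitosis are known to be repressed outside the cycle by the DREAM complex, which acts through the cell cycle genes homology region (CHR), and to be activated by the factor NF-Y at CCAAT boxes. The promoters of the 4 genes lower in both sexes, and of the 2 condensin genes that stood out on 1 array each, are therefore shown. They are RefSeq windows on GRCm38.p6, from 130 bases before to 30 after the annotated start, 5′ to 3′ on the gene's strand, with CHR elements (TTTGAA or TTCGAA on either strand) and CCAAT boxes (CCAAT on either strand, so also ATTGG) in capitals.
Cenpe (chr3:135212433-135212592, plus strand): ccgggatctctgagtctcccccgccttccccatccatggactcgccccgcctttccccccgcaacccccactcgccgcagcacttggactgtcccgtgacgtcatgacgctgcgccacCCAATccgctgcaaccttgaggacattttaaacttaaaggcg
Espl1 (chr15:102296163-102296322, plus strand): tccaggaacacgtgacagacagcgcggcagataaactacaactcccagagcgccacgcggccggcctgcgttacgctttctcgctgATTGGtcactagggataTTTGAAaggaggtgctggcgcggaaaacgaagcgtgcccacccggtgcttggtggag
Kif23 (chr9:61946770-61946929, minus strand): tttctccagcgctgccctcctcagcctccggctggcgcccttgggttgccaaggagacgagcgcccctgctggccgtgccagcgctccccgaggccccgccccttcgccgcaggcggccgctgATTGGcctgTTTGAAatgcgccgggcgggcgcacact
Kif4 (chrX:100625935-100626094, plus strand): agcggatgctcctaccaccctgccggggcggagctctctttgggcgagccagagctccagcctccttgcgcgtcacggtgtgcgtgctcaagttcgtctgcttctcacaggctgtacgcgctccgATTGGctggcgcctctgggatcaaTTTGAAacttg
Ncapd2 (chr6:125191557-125191716, minus strand): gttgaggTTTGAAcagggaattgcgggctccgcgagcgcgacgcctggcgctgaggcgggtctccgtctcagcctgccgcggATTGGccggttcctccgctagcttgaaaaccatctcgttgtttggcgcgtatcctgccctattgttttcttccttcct
Ncapg (chr5:45669795-45669954, plus strand): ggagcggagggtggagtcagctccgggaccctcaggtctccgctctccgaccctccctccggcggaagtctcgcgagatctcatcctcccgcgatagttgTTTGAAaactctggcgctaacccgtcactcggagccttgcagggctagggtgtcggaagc

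*Espl1*, *Kif23* and *Kif4* hold a CHR element and a CCAAT box close to the start, *Ncapd2* holds both but with the CHR element farther upstream, *Ncapg* shows a CHR element alone in this stretch, and *Cenpe* a CCAAT box alone. Of the 40 genes, 33 were matched to the promoter table, with 35 windows of 300 bases. A CHR element was found in 26 of the 35 windows (74.3%), against 19.2% of all 32851 windows of that length, and a CCAAT box in 77.1%, against 37.4%. Both were present in 68.6% of the windows, against 7.52%, and 48.6% held at least 2 CCAAT boxes, against 11.7%. Of the windows of genes lower in MF, 9 of 13 (69.2%) held a CHR element, and of those of the other genes 16 of 21 (76.2%). A match is a run of letters and does not show that a factor binds there.

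**Figure D2:**
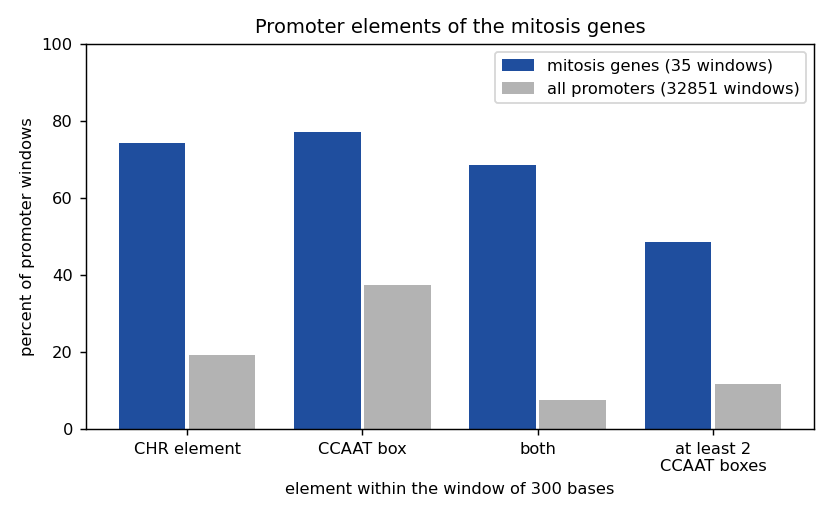
Percent of promoter windows of 300 bases (vertical axis) that hold a CHR element, a CCAAT box, both, or at least 2 CCAAT boxes, for the mitosis genes (blue, 35 windows) and for all promoters in the table (grey, 32851 windows). The elements occur in 74.3% and 77.1% of the windows of the mitosis genes, against 19.2% and 37.4% of all windows.

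None of the 6 cyclins and mitotic kinases passed 1.5-fold in MF vs CF by its brightest probe, where 21.0% of all genes were lower and 19.9% higher. The dimmer probes of *Ccnb1* (cyclin B1) did, with -1.04 and -1.01. By the brightest probes, the differences of the 6 genes ran from -0.49 (*Ccnb1*) to 0.31 (*Aurka*, the kinase of the spindle poles), with *Ccna2*, *Ccnb2* and *Plk1* between these. Their median was -0.07, which is above 0 with median centring and with the deposited values. In males only *Nek2*, a kinase that splits the centrosomes, passed the threshold by its brightest probe, where 23.1% of all genes were lower. A dimmer probe of *Ccnb1* was 0.74 higher in MM. *Nek2* read 0.73 on MF and 0.92 on MM, against 0.95 on CF and 1.66 on CM, so that CM stood above the other three arrays and MM was 1.67-fold lower. *Plk1*, the polo kinase, was the next largest in males (0.55 higher in MM), and its lowest level of the 4 arrays was that on CM.

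Among the 6 genes of the spindle checkpoint, 3 were lower and 1 was higher past 1.5-fold in MF than in CF, beside 21.0% and 19.9% of all genes. None passed 1.5-fold in males by its brightest probe, where 23.1% of all genes were lower and 17.7% higher. *Mad2l1*, whose product binds and blocks the activator *Cdc20*, read 2.76 on MF and 3.37 on MM, against 3.82 on CF and 3.85 on CM. The MF array was the lowest and the C arrays were level, and the difference was 2.08-fold in females, or -0.51 on the log2 scale as the mean of its probes. *Ttk*, the kinase that starts checkpoint signalling, read -1.60 on MF and -1.28 on MM, against -0.82 on CF and -0.97 on CM, 1.72-fold lower in MF. *Bub3*, which brings the checkpoint kinases to the kinetochore, read 3.09 on MF and 3.96 on MM, against 3.87 on CF and 3.94 on CM. For *Bub3* MF alone stood apart, 1.71-fold below CF, while the remaining arrays lay close together. *Bub1b*, an inhibitor of the anaphase-promoting complex, went the other way, with 2.25 on MF and 1.52 on MM, against 1.04 on CF and 1.33 on CM, 2.31-fold higher in MF. The median of the subgroup in females was -0.49 and stayed below 0 under all 12 settings (-0.69 to -0.09). *Cdc20*, which activates the anaphase-promoting complex, differed by -0.21 in females and 0.12 in males.

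*Bub1*, the checkpoint kinase printed at 10 spots, shows how far single spots scatter. Its spots averaged 0.83 on MF (SD 0.20), 0.59 on MM (SD 0.55), 0.77 on CF (SD 0.35) and 0.89 on CM (SD 0.51). These SDs are between spots of 1 array and not between animals. The means were close on all arrays, with differences of 0.06 in females and -0.29 in males. Taken spot by spot, the difference ran from -0.58 to 0.67 in females, with 1 of 10 spots past 1.5-fold, and from -1.60 to 0.75 in males, with 4 of 10 past it. Single spots of *Bub1* thus passed the threshold where the mean of all spots did not.

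The chromosomal passenger complex corrects wrong attachments and later directs cleavage. Of its 4 genes, *Cdca8* (borealin) was higher past 1.5-fold in MF, where 19.9% of all genes were. *Aurkb*, the kinase of the complex, was higher in MM, where 17.7% of all genes were. *Aurkb* read -2.04 on MF and -1.58 on MM, against -1.56 on CF and -2.90 on CM. CM was the lowest array, and MM, which was 2.50-fold above CM, was level with CF. *Cdca8* read 4.94 on MF and 3.82 on MM, against 4.30 on CF and 4.0 on CM on its brightest probe, 1.56-fold higher in MF, and within 1.5-fold with quantile normalization (0.24). *Incenp*, the scaffold, was lower in MF by 0.52, and *Birc5* (survivin) differed by 0.15 in females and -0.04 in males.

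At the kinetochore, 2 of 7 genes (28.6%) were lower and none higher past 1.5-fold in MF, beside 21.0% and 19.9% of all genes. *Ndc80*, the subunit that grips the microtubule, read 0.12 on MF and 0.85 on MM, against 1.57 on CF and 0.96 on CM. CF was the highest and MF the lowest, a 2.74-fold difference, while MM and CM were within 0.11. The partners of *Ndc80* in the same complex differed less: *Nuf2* by -0.11, *Spc24* by -0.19 and *Spc25* by -0.55 in females. *Spc25* read 3.60 on MF and 4.24 on MM, against 4.15 on CF and 3.56 on CM, which made it 1.60-fold higher in MM than in CM. MF and CM were level, as were MM and CF, and the male difference turned to -0.22 after normexp correction with quantile normalization. *Cenpa*, the histone variant that marks the centromere, was higher by 0.46 in both sexes, within 1.5-fold. *Cenpf*, a large protein of the outer kinetochore, differed by -0.29 in females and in males was at least 1.46-fold higher in MM, the CM spot being not well above background. The median of the 7 genes in females, -0.29, was 0.12 with the deposited values.

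Of the kinesins, 6 of 6 were lower in MF in some amount, against 52.2% of all genes. Past 1.5-fold, 4 of the 6 were lower, against 21.0% of all genes. Their median in females was -0.65, and it stayed between -0.69 and -0.25 under the 12 settings, or between -0.60 and -0.45 relative to all genes. As above, several of the settings could not change the value relative to all genes. *Kif2c*, which takes microtubules apart at the centromere, read -0.86 on MF and 0.08 on MM, against 0.55 on CF and 0.29 on CM. MF was the lowest by 0.94, and 2.67-fold below CF. *Kifc1*, a motor that moves to the minus end and gathers the spindle poles, read 0.63 on MF and 0.73 on MM, against 1.38 on CF and 0.86 on CM, 1.68-fold lower in MF. Here CF was above the other three arrays, which lay close together. *Kif20a*, a kinesin of cytokinesis, was lower by 0.56 in MF, and *Kif11*, the motor that pushes the poles apart, by 0.06. In males 5 of 6 kinesins were lower in some amount, against 47.7% of all genes. The median of the kinesins in males was -0.21, and it was above 0 with median centring and with the deposited values.

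The genes of condensin and *Top2a* held the highest difference of each sex. *Ncapd2* (probe A_51_P202074, chromosome 6, 125118012 to 125118066 on mm9), a regulatory subunit of condensin, read 5.56 on MF and 3.23 on MM, against 3.95 on CF and 3.51 on CM. MF stood 1.62 above the next array, and the difference from CF was 3.07-fold (1.62 on the log2 scale, and 1.03 after normexp correction with quantile normalization). *Ncapg* (probe A_55_P1990341, chromosome 5, 46091679 to 46091738 on mm9), another regulatory subunit, read -2.87 on MF and -1.06 on MM, against -2.52 on CF and -3.00 on CM. For this gene MM alone was high, 3.84-fold above CM (1.94 on the log2 scale, and 1.29 after that correction). Each of these rests on 1 spot per array. *Smc4*, the partner ATPase of *Smc2*, read 3.75 on MF and 4.47 on MM, against 4.49 on CF and 4.41 on CM, so that MF alone was low, by 1.66-fold. *Ncaph*, the subunit that closes the ring, read 3.03 on MF and 2.72 on MM, against 3.72 on CF and 2.83 on CM, where CF alone was high, 1.61-fold above MF. *Top2a*, the topoisomerase that untangles sister chromatids, read 2.36 on MF and 2.25 on MM, against 2.90 on CF and 3.03 on CM. Both M arrays lay below both C arrays for *Top2a*, 1.45-fold in females and 1.72-fold in males (-0.78 on the log2 scale, and -1.90 after that correction). The median of the 5 genes in females was -0.54 and was below 0 under all 12 settings (-0.72 to -0.14).

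*Nusap1*, which bundles spindle microtubules, read 3.16 on MF and 3.62 on MM, against 3.86 on CF and 3.92 on CM, 1.63-fold lower in MF, a difference that fell short of 1.5-fold after normexp correction with quantile normalization (-0.23). *Tpx2*, the activator of *Aurka*, read 2.43 on MF and 1.69 on MM, against 1.76 on CF and 2.04 on CM, 1.60-fold higher in MF, and within 1.5-fold after that correction (0.35) or as the mean of its probes (0.30). *Prc1*, which cross-links the microtubules of the midzone, read 3.80 on MF and 3.63 on MM, against 3.89 on CF and 2.89 on CM. CM alone was low for *Prc1*, and MM was 1.68-fold above it, or 0.51 on the log2 scale with the trend with probe GC content removed. *Pttg1*, securin, the inhibitor of separase, was higher by 0.53 in MF and by 0.17 in MM on its brightest probe, whereas *Espl1* was lower in both.

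**Figure D3:**
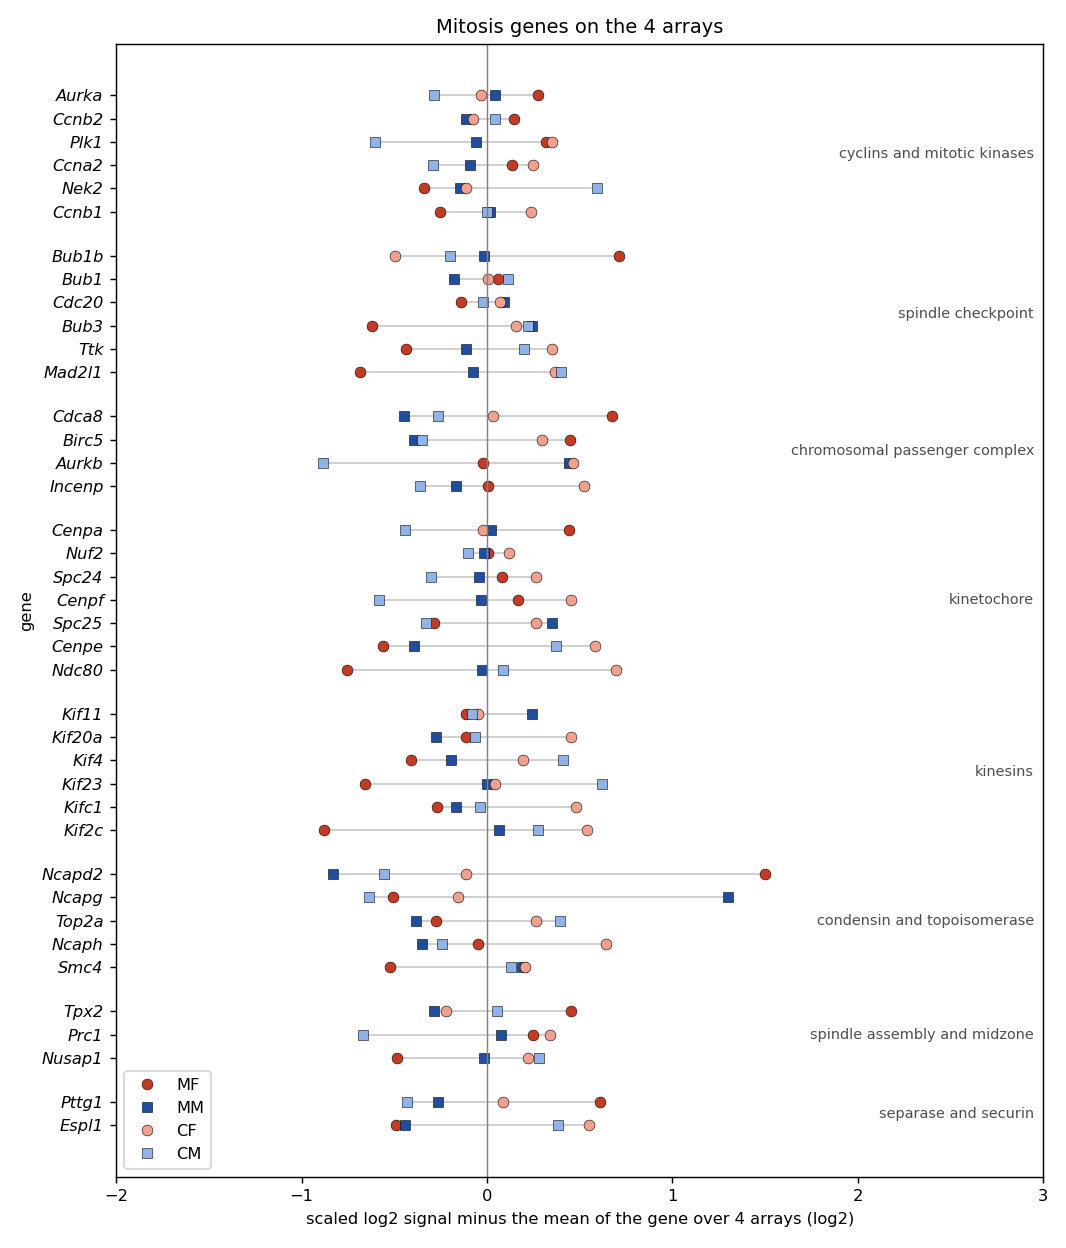
Level of each of the 39 genes on the 4 arrays, as scaled log2 signal minus the mean of the gene over the arrays (horizontal axis), with 1 point per array: MF dark red and CF light red circles, MM dark blue and CM light blue squares. CF was the highest array for 18 genes and the lowest for 1, and MF was the lowest for 16. The same ranks were not counted over all genes.

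Over the 39 genes, CF was the highest array for 18 and the lowest for 1. MF was the highest for 9 and the lowest for 16, MM for 5 and 9, and CM for 7 and 13. These ranks were not counted over all genes, so they cannot be called particular to the mitosis genes. The comparisons of the sexes share these arrays with those above and add no independent sample. In CM vs CF, 9 genes were lower and 1 (*Nek2*) was higher past 1.5-fold, where 19.7% and 26.6% of all genes were, with a median of -0.25 for the mitosis genes and 0.02 for all genes. All 7 kinetochore genes and all 4 of the passenger complex were lower in CM than in CF in some amount, against 47.2% of all genes. In MM vs MF, 6 were lower and 8 higher, where 20.5% and 28.9% of all genes were, with a median of -0.02, beside 0.11 for all genes.

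Several probes read the same gene for 9 of the genes, and they did not always give the same difference. Both *Kif2c* probes gave -1.42 in females, with -0.21 and -0.29 in males. The *Incenp* probes gave -0.52 and -0.51 in females, and 0.20 and 0.34 in males. For *Ccnb1* the brightest probe gave -0.49 in females and its dimmer probes -1.04 and -1.01, both past 1.5-fold, so that the count of lower genes depends on the probe chosen. In males the brightest *Ccnb1* probe gave 0.02 and the dimmer ones 0.74, past 1.5-fold, and 0.22.

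Other genes were less even. The brightest *Mad2l1* probe gave -1.06 in females and -0.47 in males, while its dimmer probes gave -0.27 and -0.20 in females and 1.5 and 0.72 in males. The second *Cdca8* probe read 3.32 on MF and 3.28 on MM, against 3.86 on CF and 3.73 on CM, which gives -0.54 in females where the brightest probe gave 0.64. That brightest probe is 1 of 3 among the 39 genes (7.69%, against 9.36% of all genes) that are rich in C and T (at least 4 stretches of 5 bases with no A or G and with 3 C or more). *Pttg1* read 4.36 on MF and 3.49 on MM, against 3.84 on CF and 3.32 on CM on its brightest probe. A second and dim probe read -3.07 on MF and -3.81 on MM, against -1.91 on CF and -2.67 on CM. The brightest and the dim probe gave 0.53 and -1.16 in females, and 0.17 and -1.14 in males. *Tpx2* gave 0.68 on the brightest and -0.07 on the second probe. For *Birc5* the brightest probe is flagged on CM and was not used, and the unflagged ones gave 0.15 and -0.70 in females. The second *Nuf2* probe was not well above background on any array.

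**Figure D4:**
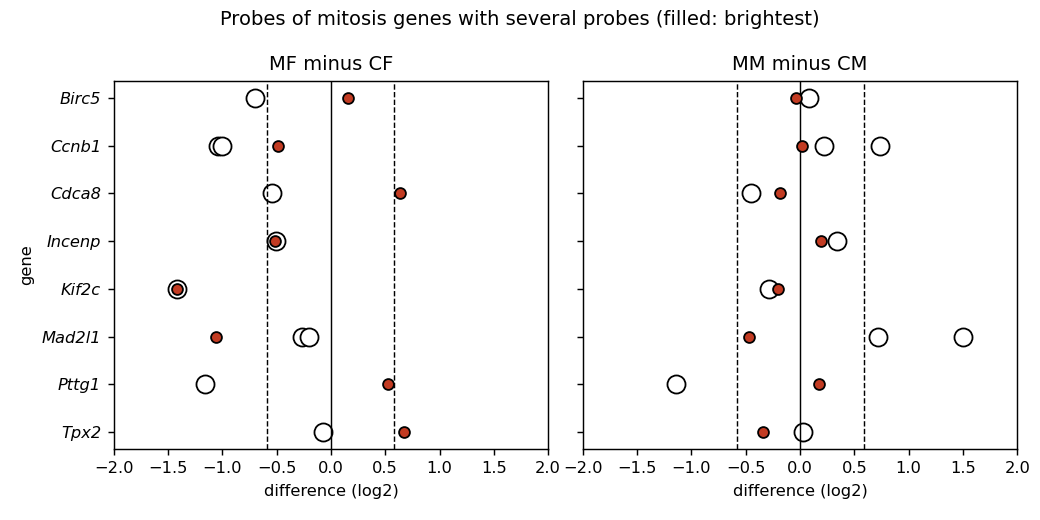
Difference in MF minus CF (left) and MM minus CM (right), log2, for each unflagged probe of the genes with several probes above background, the brightest probe filled in red and 1 point per probe, with dashed lines at 1.5-fold. The *Kif2c* and *Incenp* probes coincide in females, whereas those of *Cdca8*, *Pttg1* and *Birc5* lie on both sides of 0.

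A wider list of 101 named mitosis genes outside these 40 was read in the same way, and 98 of them were compared. This list too was chosen with earlier results known, and it was read on the same arrays, so it is no independent support. In MF vs CF, 33 of the 98 (33.7%) were lower and 10 (10.2%) higher past 1.5-fold, beside 21.0% and 19.9% of all genes. Their median was -0.43, beside -0.11 for all genes. In MM vs CM 13 (13.3%) were lower and 10 (10.2%) higher, beside 23.1% and 17.7% of all genes. The median in males was -0.01, beside -0.07 for all genes. The lower genes in females were most frequent among the other kinetochore and centromere genes (15 of 28 or 53.6% lower, 2 higher, median -0.62). Of the other condensin and cohesin genes, 7 of 16 (43.8%) were lower and none higher (median -0.49). Of the other spindle and cytokinesis genes, 7 of 22 (31.8%) were lower and none higher (median -0.51). The other checkpoint and anaphase-promoting complex genes had 2 of 17 lower (11.8%) and 5 higher (29.4%). The other mitotic entry kinases and phosphatases had 2 of 15 lower (13.3%) and 3 higher (20.0%). The lower shares of these lists are below that of all genes. In males no list had over 4 genes in a direction.

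The lowest differences in females among these genes were -1.28 for *Ect2*, which starts cleavage, -1.27 for *Ncapg2*, a subunit of the second condensin complex, and -1.23 for *Mastl*, a kinase of mitotic entry. The highest were 2.34 for *Anapc2*, a core subunit of the anaphase-promoting complex, 1.90 for the phosphatase *Cdc25b* and 1.70 for *Ube2s*, which extends ubiquitin chains for that complex. *Anapc2* was also the lowest in males (-1.51), with levels of 6.96 on MF and 2.87 on MM, against 4.62 on CF and 4.37 on CM, so that the M arrays lay on opposite sides of the C arrays. It was followed in males by the centromere gene *Cenpn* (-1.28) and the spindle gene *Ckap2* (-1.0). The highest in males were the kinetochore gene *Mis12* (1.48), the inhibitory kinase *Wee1* (1.39) and *Fbxo5*, an inhibitor of the anaphase-promoting complex (1.05).

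**Figure D5:**
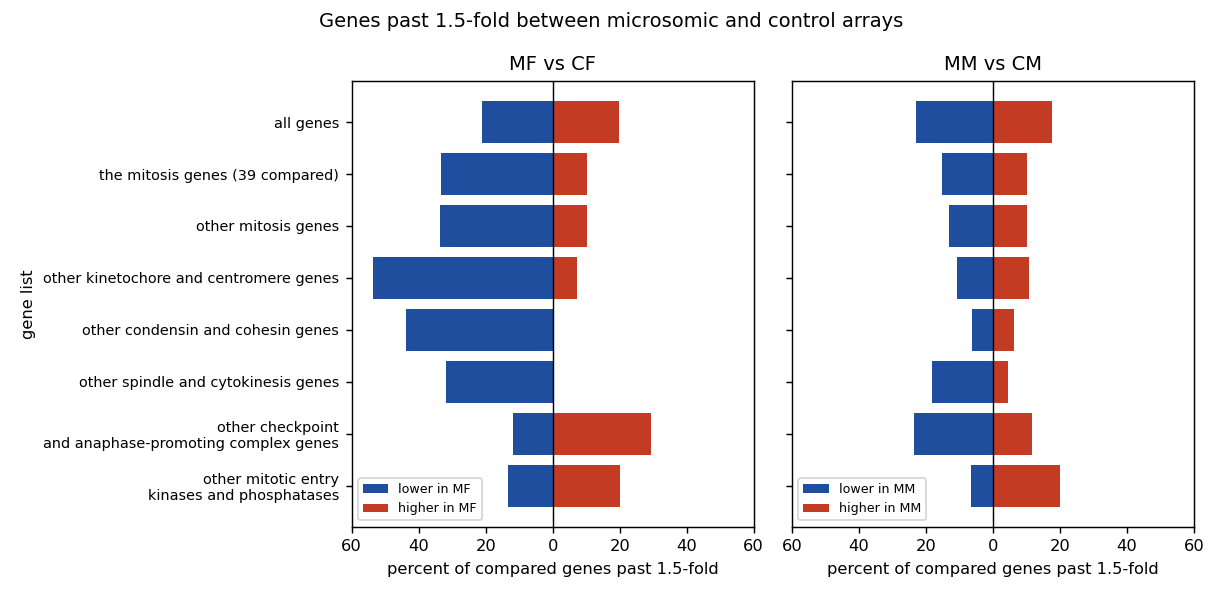
Percent of the compared genes of each list that passed 1.5-fold (horizontal axis), lower in M to the left in blue and higher in M to the right in red, for females (MF vs CF) and males (MM vs CM). In females 33.3% of the 39 mitosis genes and 33.7% of the 98 other mitosis genes were lower, beside 21.0% of all genes, and in males 15.4% and 13.3%, beside 23.1%.

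Markers of the cell types that the liver holds at this age differed between the arrays as well, and their part in the results above was not tested. Counts of lower and higher markers are past 1.5-fold. Of all genes, 21.0% were lower and 19.9% higher in MF vs CF, and 23.1% and 17.7% in MM vs CM. All 11 hepatocyte markers were well above background on all arrays, *Alb* among them. In females 1 was lower (*Apoa2*, saturated on MF) and 1 higher, and in males 5 were lower and 2 higher. The probes of 6 of the 11 were saturated on MF, 1 of them also on CF and another on CM, so that their levels there are lower limits. The other 5 had a summed level (relative to the 75th percentile, linear) of 2415 on MF and 1448 on MM, against 2105 on CF and 1894 on CM. Of 15 erythroid markers, those of the red cell precursors that divide in the liver, 4 were lower and 3 higher in MF, and 2 lower and 2 higher in MM. The globin probes *Hba-a1* and *Hbb-b1*, the latter among the 4 lower ones, were saturated on MF. The other 13 summed to 717 on MF and 458 on MM, against 628 on CF and 604 on CM, which is higher in MF than in CF and lower in MM than in CM. Gene by gene, however, 11 of the 15 were lower in MF in some amount (median -0.34), against 52.2% of all genes. Among the few higher in MF were the bright genes *Slc4a1* (0.84) and *Alas2* (0.70), which weigh more in a linear sum. In males 10 of the 15 were lower in MM in some amount (median -0.18), against 47.7% of all genes. All 15, *Gata1* and the globins among them, were above background on all arrays.

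The granulocyte markers were higher in MF for 8 of 10 genes (80.0%) and lower for none, beside 19.9% and 21.0% of all genes. Their median was 1.0, with summed levels of 2068 on MF and 1025 on MM, against 1013 on CF and 1340 on CM. In males 2 were lower and none higher, beside 23.1% and 17.7% of all genes. The macrophage markers were likewise higher in MF for 8 of 10 (median 0.79, sums 316 on MF and 153 on MM, against 141 on CF and 145 on CM), with 2 higher and 2 lower in MM. The summed level of both myeloid lists was thus highest on MF. Megakaryocyte markers were higher for 2 of 6 in MF and 1 of 6 in MM, with none lower. B cell precursor markers were higher for 3 and lower for 1 of 8 in MF, and higher for 1 and lower for 2 in MM. Endothelial markers were lower for 1 of 6 in MF and for none in MM, with none higher. The genes of all lists were read by the same rule as the mitosis genes.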

How the data were processed

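Cy3-labelled liver RNA was measured on Agilent SurePrint G3 Mouse GE arrays (1 colour, probes of 60 bases), and the scans were quantified with Agilent Feature Extraction 10.7.3.1 per the file headers. The deposited processed signal is a linear intensity, which the authors' software had corrected for background and spatial trend, without normalization between arrays. The deposited value table holds the same intensity in all 62976 spots. The study's methods state 3 replicate experiments per group, and 1 array per group was analysed here.

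Each signal was taken as log2 minus the log2 of the array's 75th percentile over 59305 non-control spots. The 1754 spots with a non-uniformity or population outlier flag anywhere were dropped from all 4 arrays, spots of a probe were averaged, and a gene was taken by its brightest probe. A gene was compared when well above background on at least 1 array of a pair. Where the other array was not, its level was set at the dimmest signal that passed there, or at its own signal if higher, and the fold is a bound ("at least"). limma 3.58.1 (R 4.3.3) was fitted to the 4 arrays with terms for microsomia and sex. On simulated data this fit recovered large changes, with more false calls than its threshold of 0.05 allows. Tables were handled in Python 3.11.15 with pandas 2.3.3. Promoters came from a RefSeq table on GRCm38.p6, in which 7 of the 40 genes (*Aurkb*, *Ccna2*, *Incenp*, *Kif20a*, *Smc4*, *Spc24*, *Tpx2*) had no entry. The array annotation is on mm9, whose positions are not mixed with these.

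Values on all arrays are given for genes past 1.5-fold in either sex or with probes that disagree, and of the other mitosis genes the 3 lowest and 3 highest differences in each sex are named. The genes and lists were chosen with earlier results of these data known. The alternatives were other scalings (median centring, quantile, normexp with an offset of 50 and quantile, none), flagged spots kept, the mean over probes, probes poor in C and T, filters on dim probes, removal of trends with probe GC content and with position on the array, and a 2-fold threshold. For limma they were an intensity trend, the fit without sex, the scalings and the threshold of the methods. The number of arrays limits the precision of all values.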

Additional observations from a re-analysis of the deposited data

Results flagged for a closer look

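In several genes the female difference (MF minus CF) and the male difference (MM minus CM) had opposite signs. They lay more than 1.17 apart on the log2 scale. With 1 array per group these gaps were not tested. Given as the female minus the male difference, the gap was 1.89 for *Ncapd2*, which was high on MF, and -2.29 for *Ncapg*, which was high on MM. It was -1.81 for *Aurkb* and -1.23 for *Spc25*, and in both of these MM and CF were the higher arrays. Among the other mitosis genes named, the gap was 3.85 for *Anapc2*, 2.35 for *Cdc25b* and 2.33 for *Ube2s*, all high on MF, and -1.29 for *Ncapg2* and -1.20 for *Fbxo5*. In all of these genes but *Anapc2* and *Ube2s* the difference was within 1.5-fold in 1 sex. In males it was -0.28 for *Ncapd2*, -0.45 for *Cdc25b* and 0.02 for *Ncapg2*. In females it was -0.35 for *Ncapg*, -0.48 for *Aurkb*, -0.55 for *Spc25* and -0.14 for *Fbxo5*. Each gap was read from the 4 arrays alone, and the spread of the female and of the male difference is unknown.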

How the results depend on the processing

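In females the counts of 13 lower and 4 higher genes were within 1.5 times of these under most settings. The lower genes numbered 5 with the deposited values without scaling and 5 at a 2-fold threshold, and the higher ones 8 with the deposited values, 2 when the probes of a gene were averaged and 2 at 2-fold. In males the 6 lower genes became 0 after median centring, 12 with normexp and quantile normalization, 0 with the deposited values and 0 at 2-fold, and the 4 higher ones 7, 7, 17 and 2. The 4 genes lower in both sexes became 0 with median centring, 0 with the deposited values, 0 at 2-fold and 2 with the trend over the array removed, and with the deposited values 4 genes were higher in both. Shares of all genes past the fold were counted in the main setting alone. The counts under the alternatives therefore have no such share beside them and do not show what is particular to the mitosis genes. The deposited values moved all differences up by 0.40 in females and 0.56 in males, so that the medians over the mitosis genes became 0.0491 and 0.4872. For single genes, the male difference of *Spc25* turned to -0.22 with normexp and quantile normalization, and the female difference of *Cdca8* to -0.54 with probes poor in C and T. That normexp setting also moved single genes by over 1.5-fold without a change of direction: *Ncapd2* in females from 1.62 to 1.03, and in males *Ncapg* from 1.94 to 1.29, *Top2a* from -0.78 to -1.90 and *Cenpe* from -0.77 to -0.16. Averaging the probes moved the female difference of *Cdca8* from 0.64 to 0.05. The causes of these changes were not tested. limma called 0 of 38 genes after adjustment under each alternative, and at an unadjusted p under 0.05 it had 2 with an intensity trend (4.54% of all genes), 1 with quantile normalization (4.17%), all lower in M, and 3 with the deposited values (11.8%), all higher in M.

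No paired analysis was possible because each group holds 1 array and the groups share no more than 1 replicate number. For the same reason no replicate was left out.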
